A study of Homo sapiens with 6 samples.

Results

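The genes described here act in homologous recombination and in the Fanconi anaemia pathway of crosslink repair. They were measured by RNA sequencing in OE33 cells, an established line of human oesophageal adenocarcinoma. The APX2009 group held 3 libraries from cultures given 15 µM of this compound, which blocks the redox function of the repair enzyme APE1, for 24 h, and the untreated group held 3 libraries from cultures without it. No vehicle is named for the untreated cells, and the series design calls the replicates of each group independent. The 39 members were chosen by name, and all 39 were matched by symbol to 1 row each of the deposited table, which counts reads for 58051 Ensembl genes. All 39 also passed the filter on low counts and were among the 14773 genes tested.

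Homologous recombination repairs DNA double-strand breaks by copying an intact sister sequence. Broken ends are first resected, BRCA1, BARD1, PALB2 and BRCA2 then prepare the exposed strand for pairing with the sister, and further partners and nucleases complete the exchange. In the Fanconi pathway a core complex with the ubiquitin-conjugating enzyme UBE2T attaches ubiquitin to the FANCD2-FANCI pair at crosslinked DNA, which opens the way to the same recombination steps. Because a sister copy is needed, cells use this repair mainly in S and G2 phase. Transcripts of many of its genes are driven by E2F factors and rise as cells enter S phase, whereas others are present throughout the cycle. The members were therefore split, from general knowledge of their regulation, into 20 cell-cycle linked genes and 19 constitutive genes. Earlier results of these data were known when the split was made.

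The libraries held 21158750 to 26111656 gene counts. Levels are given as CPM, the count of a gene as a rate per scaled library total (trimmed mean of M-values), and a gene is said to have fallen or risen at an edgeR adjusted p under 0.05. APX2009 replicate 1 stood apart, with counts for 25015 genes against 21845 to 22446 in the other libraries. It also had counts for all 6 fibroblast and all 6 endothelial markers, which summed to 19.3 and 2.28 CPM. In the other libraries 1 or 2 fibroblast and 1 to 4 endothelial markers had a count, with sums of 8.35 to 12.7 and 0.0445 to 0.442 CPM. COL1A2, COL3A1 and DCN were at 0 in those 5 libraries. Leukocyte markers summed to 6.61 to 7.45 CPM in APX2009 libraries and 5.61 to 6.35 CPM in untreated libraries, and CD3E was at 0 in every library. CD68 was higher in APX2009 cells (log2 change 1.19, edgeR adjusted p = 0.00513), but shares 85.8% of its exon length with other annotated genes. CD14 did not pass the test (log2 change -0.18, edgeR adjusted p = 0.398). ITGAM, too low to be tested, averaged 0.229 CPM in APX2009 libraries and 0.513 CPM in untreated libraries. All 6 epithelial markers were present in every library and summed to 14260 to 17850 CPM in APX2009 libraries and 26110 to 26770 CPM in untreated libraries. The part of these other transcripts in the results was not tested, and the counts of members are given with and without that library.

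Of the 39 members 19 fell in APX2009 cells and none rose. In edgeR, 17.4% of all tested genes fell and 17.2% rose. At an unadjusted p under 0.05 the count of members that rose was also 0, as it was with DESeq2 and limma voom. The median log2 change of the members was -0.35, against 0.02 over all genes tested, and members ranged from -0.91 for RAD54L to 0.18 for SLX4. All 3 APX2009 values lay below all 3 untreated values in 23 members, whereas 25.0% of all tested genes showed this. Without APX2009 replicate 1, 20 members fell, 14 cell-cycle linked and 6 constitutive, and 1 rose. With libraries scaled to the total of the ERCC spike-ins, 0 members passed the edgeR test, 0 at an unadjusted p under 0.05, although all 19 that fell kept a negative log2 change. These are bulk cultures, so fewer cells in S or G2 phase and less transcript per cell cannot be told apart.

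The falls were more numerous among the cell-cycle linked members. Of these 20 genes 14 fell (70.0%), with a median log2 change of -0.48. Of the 19 constitutive genes 5 fell (26.3%), with a median of -0.17. Over all genes tested 17.4% fell, and the median log2 change was 0.02. The summed level of the cell-cycle linked members was 276.2, 279.2 and 254.1 CPM in APX2009 libraries, against 380.0, 371.4 and 366.6 CPM in untreated libraries. The constitutive members summed to 487.8, 491.5 and 445.1 CPM in APX2009 libraries, against 534.1, 536.0 and 529.6 CPM in untreated libraries. In both classes every APX2009 sum lay below every untreated sum. Gene by gene, every APX2009 value lay below every untreated value in 15 of the 20 cell-cycle linked and 8 of the 19 constitutive members. Of all single genes tested, 25.0% showed this. No test was made of the difference between the classes. The split is not complete in either direction, since the cell-cycle linked BLM, BRIP1, EME1, FANCB, RAD54B and TOPBP1 did not pass the test, while the constitutive ATR, FANCE, FANCG, MUS81 and XRCC3 fell. Of the members whose class is clearest, 12 of 17 cell-cycle linked and 3 of 13 constitutive genes fell, with medians of -0.48 and -0.09. With ERCC scaling the medians of the whole classes were -0.42 and -0.11. The count of constitutive genes that fell was also 3 without APX2009 replicate 3 and 3 without untreated replicate 2.

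**Figure D1:**
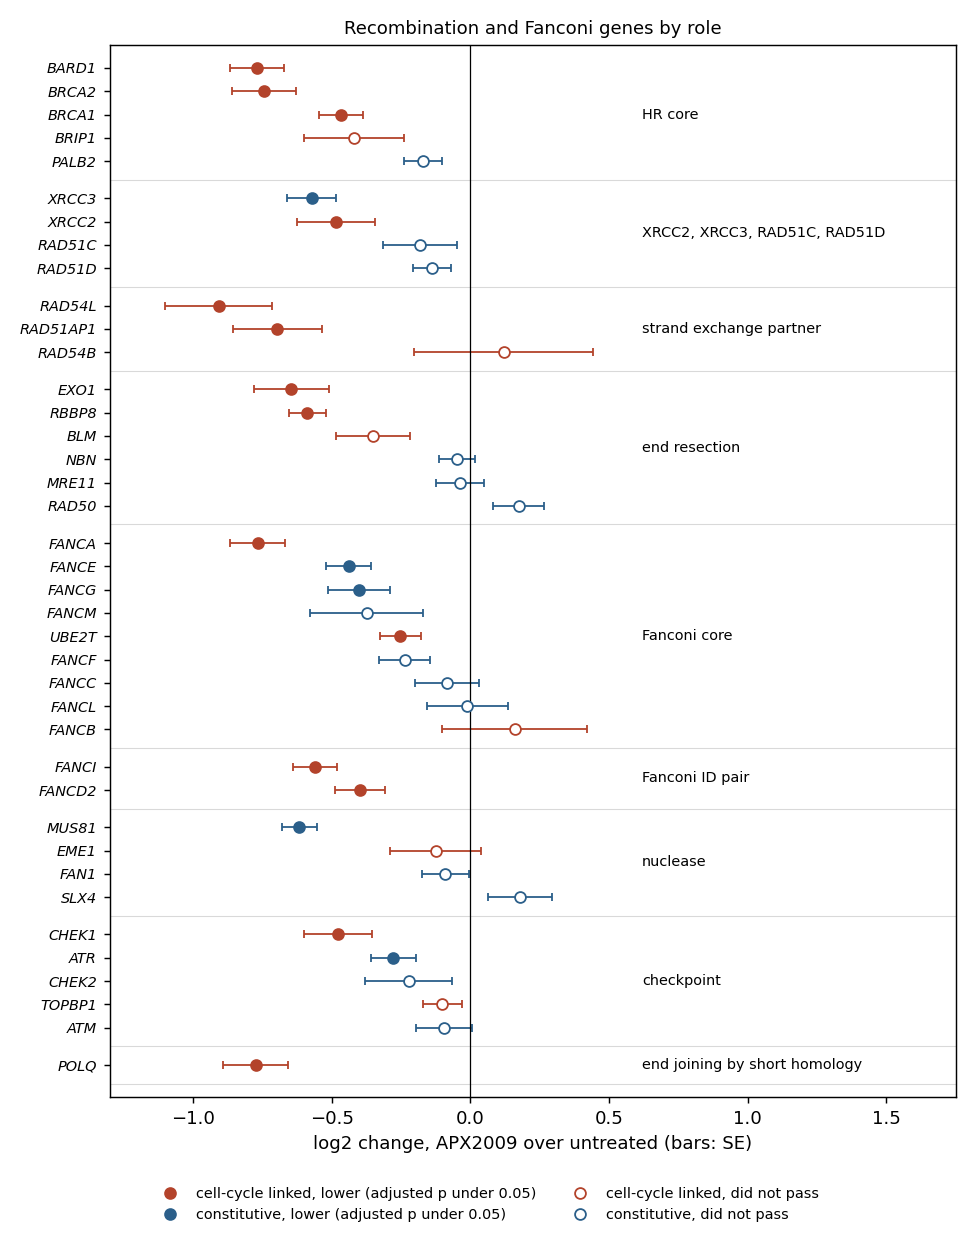
Log2 change of each of the 39 members (APX2009 over untreated, horizontal axis, bars are SE), grouped by role. Filled points passed the edgeR test and open points did not; the 19 filled points all lie left of 0, 14 of them cell-cycle linked (red) and 5 constitutive (blue).

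The promoters of both classes were searched for the words that E2F factors and the cell-cycle genes homology region (CHR) are known by. RefSeq promoters (GRCh38.p14, 250 bases before to 50 after each start) were at hand for 36 of the 39 members. The E2F search used TTTCCCGC, TTTCGCGC, TTTGCCGC and TTTGGCGC on both strands. At least 1 listed start held such a word in 5 of 18 cell-cycle linked genes (EXO1, FANCA, FANCD2, TOPBP1 and XRCC2) and in 1 of 18 constitutive genes (FANCC), against 3.99% of all 27305 genes. The CHR search used TTTGAA and TTCGAA on both strands, and found 3 of 18 cell-cycle linked genes (BRIP1, POLQ and UBE2T) and 2 of 18 constitutive genes (ATM and FANCC), against 19.5% of all genes. None of the words of the 2 searches overlapped in the members. A match is a description of the letters and not a measured binding site. The classes were themselves set from knowledge of such regulation, so their difference in E2F words is no independent check of the split. Of the genes with a word, TOPBP1, BRIP1, ATM and FANCC did not pass the expression test and the others fell. The following 5 stretches, from 120 bases before to 30 after the start, show where the words lie in 4 genes that fell and, last, in a constitutive gene that did not pass the test; capitals mark the E2F word, or in POLQ the CHR word.
FANCD2: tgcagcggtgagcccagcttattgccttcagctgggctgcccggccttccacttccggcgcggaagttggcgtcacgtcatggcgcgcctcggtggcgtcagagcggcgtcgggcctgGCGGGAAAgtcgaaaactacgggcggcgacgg
EXO1: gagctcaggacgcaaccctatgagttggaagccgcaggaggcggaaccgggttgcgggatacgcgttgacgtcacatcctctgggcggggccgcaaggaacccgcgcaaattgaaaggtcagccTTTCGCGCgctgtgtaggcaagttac
XRCC2: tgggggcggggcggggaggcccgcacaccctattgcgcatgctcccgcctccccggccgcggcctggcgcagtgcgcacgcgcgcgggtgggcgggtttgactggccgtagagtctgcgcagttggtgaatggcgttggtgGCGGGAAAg
POLQ: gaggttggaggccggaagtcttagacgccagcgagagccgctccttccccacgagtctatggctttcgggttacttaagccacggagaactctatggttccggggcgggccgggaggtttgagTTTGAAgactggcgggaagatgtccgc
FANCC: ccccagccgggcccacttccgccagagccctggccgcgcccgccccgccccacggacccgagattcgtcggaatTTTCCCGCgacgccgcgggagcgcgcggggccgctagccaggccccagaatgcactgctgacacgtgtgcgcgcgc
These stretches are chr3:10026317-10026466 (plus strand), chr1:241848084-241848233 (plus), chr7:152676112-152676261 (minus), chr3:121545959-121546108 (minus) and chr9:95317680-95317829 (minus). The word starts 2 bases before the start in FANCD2 and at base 5, 22 and 4 after it in EXO1, XRCC2 and POLQ. In FANCD2 and XRCC2 the capitals GCGGGAAA are the word TTTCCCGC read on the other strand. In FANCC the word lies 46 bases before the start.

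BRCA1 and BARD1 code for the partners of a ubiquitin ligase that promotes resection, and both fell. BRCA1 (ENSG00000012048, chromosome 17, 43044295 to 43170245, GRCh38) had 29.4, 27.0 and 24.6 CPM in APX2009 libraries, against 38.2, 37.8 and 36.0 CPM in untreated libraries. Its log2 change was -0.47 ± 0.08 (SE; edgeR adjusted p = 0.0015). BARD1 (ENSG00000138376, chromosome 2, 214725646 to 214809711) had 11.9, 11.9 and 11.0 CPM in APX2009 libraries, against 21.4, 19.9 and 18.0 CPM in untreated libraries. It had the larger log2 change of the pair, -0.77 ± 0.10 (SE; edgeR adjusted p = 2.28e-04). Per kb of exon, the BARD1 level was 0.611, 0.669 and 0.678 of the BRCA1 level in APX2009 libraries, against 0.847, 0.797 and 0.757 in untreated libraries. The ratios of the groups did not overlap (two-sided exact permutation p = 0.1, the smallest that 3 against 3 libraries allow, and 0.167 adjusted over the 10 gene ratios computed, which were chosen after the levels were seen).

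BRCA2, the mediator of recombination on resected DNA, fell as well. Its gene (ENSG00000139618, chromosome 13, 32315474 to 32400266) had 8.05, 7.91 and 6.75 CPM in APX2009 libraries, against 11.8, 13.1 and 13.2 CPM in untreated libraries, with log2 change -0.74 ± 0.12 (SE; edgeR adjusted p = 7.80e-04). PALB2, the bridge between BRCA1 and BRCA2, was classed as constitutive. It had 26.1, 27.7 and 26.8 CPM in APX2009 libraries, against 29.5, 30.7 and 30.4 CPM in untreated libraries. These groups did not overlap either, but the log2 change of -0.17 ± 0.07 did not pass the test (SE; edgeR adjusted p = 0.0821). The helicase gene BRIP1 overlapped between groups, at 3.78, 3.69 and 3.07 CPM in APX2009 libraries and 4.92, 5.50 and 3.69 CPM in untreated libraries (log2 change -0.42 ± 0.18, SE; edgeR adjusted p = 0.0973). It fell when untreated replicate 3 was left out (log2 change -0.56, edgeR adjusted p = 0.0494).

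Among the partners that assist strand exchange, RAD54L and RAD51AP1 fell and RAD54B did not pass the test. RAD54L, a DNA translocase gene (ENSG00000085999, chromosome 1, 46247688 to 46278473), had the most negative log2 change of the 39 members, within its SE of those of BARD1, BRCA2, FANCA and POLQ. Without APX2009 replicate 1 it was -0.76, and BRCA2 at -0.79, BARD1 at -0.79 and POLQ at -0.78 were lower. RAD54L had 3.00, 4.89 and 3.31 CPM in APX2009 libraries, against 7.73, 7.07 and 6.14 CPM in untreated libraries, with log2 change -0.91 ± 0.19 (SE; edgeR adjusted p = 0.00489). Its groups did not overlap, and APX2009 replicate 2 lay above the other treated libraries. RAD51AP1, which codes for a stimulator of strand exchange, had 8.20, 8.27 and 5.51 CPM in APX2009 libraries, against 11.7, 10.9 and 13.1 CPM in untreated libraries (log2 change -0.70 ± 0.16, SE; edgeR adjusted p = 0.00741). RAD54B, a relative of RAD54L, was near the lower limit of measurement with 17 to 51 counts per library. Its levels were 1.91, 1.42 and 0.814 CPM in APX2009 libraries and 0.984, 1.41 and 1.47 CPM in untreated libraries, which overlap (log2 change 0.12 ± 0.32, SE; edgeR adjusted p = 0.80). Annotated exons of RAD54L and RAD54B are shared with other genes over 25.1% and 59.1% of their length. For RAD54L this is the opposite-strand gene LRRC41, which averaged 64.4 CPM in APX2009 libraries and 64.5 CPM in untreated libraries (log2 change -0.004, edgeR adjusted p = 0.972). The part of LRRC41 reads in the RAD54L value was not tested.

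XRCC2, XRCC3, RAD51C and RAD51D code for proteins of small complexes that assist recombination, and their calls differed. XRCC2 fell, at 3.67, 3.73 and 3.26 CPM in APX2009 libraries, against 5.37, 4.78 and 4.81 CPM in untreated libraries (log2 change -0.48 ± 0.14, SE; edgeR adjusted p = 0.0229). This call was lost when APX2009 replicate 3 or any untreated library was left out, with log2 changes of -0.51 to -0.43 over all 6 such fits. It was also lost with DESeq2 and with no filter on low counts (adjusted p = 0.076 and 0.0584). XRCC3 fell although it was classed as constitutive, at 13.9, 15.2 and 13.1 CPM in APX2009 libraries, against 21.1, 20.1 and 21.4 CPM in untreated libraries (log2 change -0.57 ± 0.09, SE; edgeR adjusted p = 8.08e-04). Exons of XRCC3 overlap those of KLC1 on the opposite strand over 76.7% of their length, and KLC1 itself fell by 0.26 on the log2 scale (edgeR adjusted p = 0.0155). The strand setting of the counting is not given in the sources used here, so the reads of the 2 genes cannot be told apart. Of the 39 members, 15 share no exon with another annotated gene, and 9 of those fell. Of the 11 that share more than 10% of their exon length, 5 fell, and of all genes tested 17.4% fell. The part of shared exons in these calls was not tested. RAD51C and RAD51D had log2 changes of -0.18 ± 0.13 and -0.14 ± 0.07 (SE), and neither passed the test (edgeR adjusted p = 0.321 and 0.153).

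**Figure D2:**
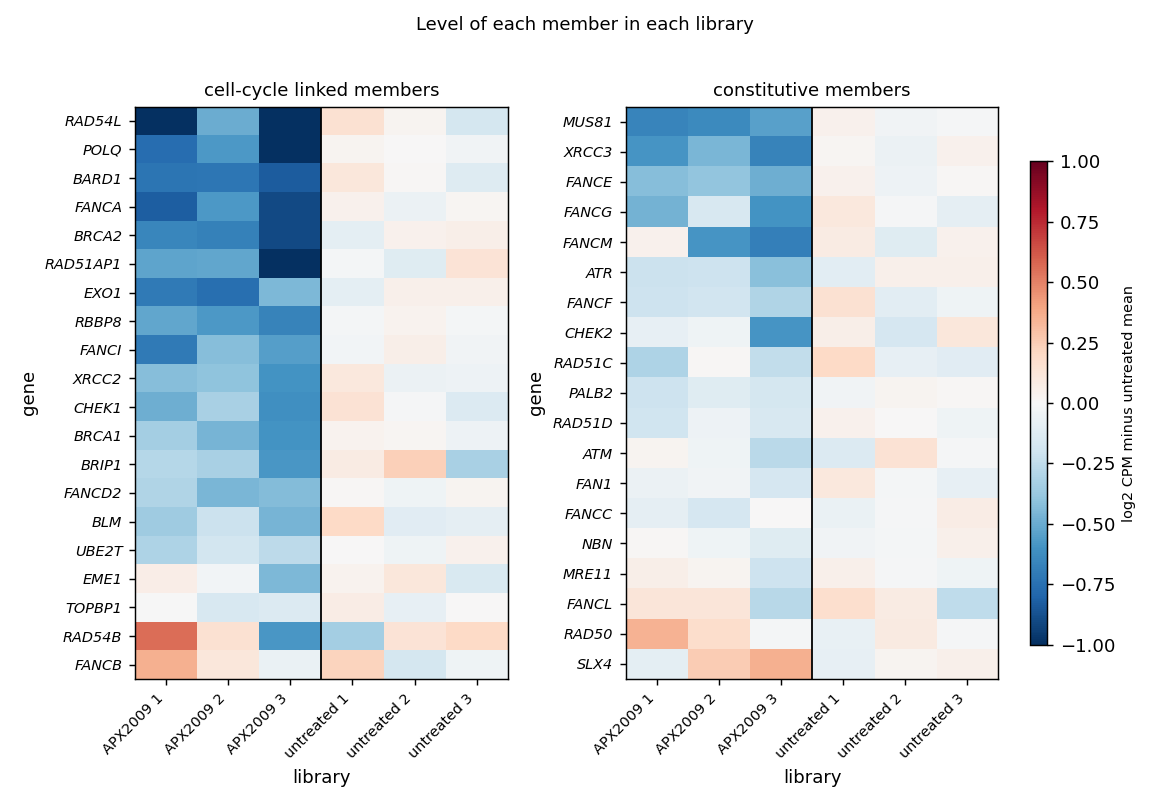
Level of each member in each library as log2 CPM minus the mean of the untreated libraries (colour, cut at -1 and 1), for cell-cycle linked members (left) and constitutive members (right), ordered by log2 change. The 3 APX2009 libraries are blue for most cell-cycle linked genes, with library medians of -0.46, -0.44 and -0.59, and paler for constitutive genes, at -0.10, -0.05 and -0.27.

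End resection is started by the MRE11-RAD50-NBN complex with RBBP8, which codes for CtIP, and extended by EXO1 and by BLM. RBBP8 and EXO1 fell, and the other 4 genes did not pass the test. RBBP8 (ENSG00000101773, chromosome 18, 22798261 to 23026488) had 34.7, 33.3 and 31.1 CPM in APX2009 libraries, against 48.9, 51.0 and 49.1 CPM in untreated libraries, with log2 change -0.59 ± 0.07 (SE; edgeR adjusted p = 1.24e-04). EXO1, an exonuclease gene, had 4.53, 4.40 and 5.46 CPM in APX2009 libraries, against 6.97, 7.75 and 7.74 CPM in untreated libraries (log2 change -0.64 ± 0.14, SE; edgeR adjusted p = 0.00452). BLM, a helicase gene, had lower values in every APX2009 library, at 6.55, 7.24 and 6.08 CPM, against 9.70, 7.75 and 7.92 CPM in untreated libraries. Its log2 change of -0.35 ± 0.13 did not pass (SE; edgeR adjusted p = 0.0683).

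The 3 genes of the MRE11 complex, which senses broken ends and tethers them, all overlapped between groups. MRE11 had 27.2, 26.6 and 22.6 CPM in APX2009 libraries and 27.0, 25.9 and 25.4 CPM in untreated libraries (log2 change -0.04 ± 0.09, SE; edgeR adjusted p = 0.778). NBN had 47.3, 45.5 and 43.2 CPM in APX2009 libraries and 45.8, 46.3 and 48.7 CPM in untreated libraries (log2 change -0.05 ± 0.06, SE; edgeR adjusted p = 0.595). RAD50 had 95.8, 85.3 and 74.3 CPM in APX2009 libraries and 71.5, 80.1 and 74.8 CPM in untreated libraries (log2 change 0.17 ± 0.09, SE; edgeR adjusted p = 0.166). APX2009 replicate 3 was the lowest treated library for all 3 genes, and RAD50 rose when it was left out (log2 change 0.26, edgeR adjusted p = 0.033). Exons of RAD50 are shared with other annotated genes over 79.7% of their length.

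The Fanconi core complex is built of modules, and calls differed within it. FANCA and FANCG belong to the same module, and both fell. FANCA (ENSG00000187741, chromosome 16, 89737549 to 89816657) had 12.7, 15.2 and 12.1 CPM in APX2009 libraries, against 23.3, 21.8 and 23.0 CPM in untreated libraries, with log2 change -0.77 ± 0.10 (SE; edgeR adjusted p = 2.90e-04). Its exons overlap the opposite-strand gene ZNF276 over 23.6% of their length, and ZNF276 had a log2 change of -0.05 (edgeR adjusted p = 0.691). FANCG had 22.0, 27.4 and 20.2 CPM in APX2009 libraries, against 32.9, 30.3 and 28.7 CPM in untreated libraries (log2 change -0.40 ± 0.11, SE; edgeR adjusted p = 0.019). The FANCG call was lost without APX2009 replicate 3, untreated replicate 1 or untreated replicate 2.

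Of the module of FANCC, FANCE and FANCF, which links the core to FANCD2, only FANCE passed the test. FANCE had 14.5, 14.8 and 13.8 CPM in APX2009 libraries, against 19.98, 18.8 and 19.6 CPM in untreated libraries (log2 change -0.44 ± 0.08, SE; edgeR adjusted p = 0.00247). FANCF did not overlap between groups, at 17.0, 17.2 and 16.0 CPM in APX2009 libraries and 21.8, 18.3 and 19.0 CPM in untreated libraries, but did not pass (log2 change -0.24 ± 0.09, SE; edgeR adjusted p = 0.073). FANCC, whose promoter stretch is printed above, overlapped, and its log2 change was -0.08 ± 0.11 (SE; edgeR adjusted p = 0.608). FANCL codes for the ubiquitin ligase of the core and FANCB for its partner. Neither passed, with log2 changes of -0.01 ± 0.15 and 0.16 ± 0.26 (SE), and FANCB had only 21 to 37 counts per library. Exons of FANCL overlap the opposite-strand gene VRK2 among others over 19.7% of their length, and VRK2 rose by 0.32 on the log2 scale (edgeR adjusted p = 0.0101). The log2 change of the DNA translocase gene FANCM was -0.37 ± 0.20 (SE; edgeR adjusted p = 0.183). APX2009 replicate 1 held its highest treated value, 4.76 CPM against 3.02 and 2.83 CPM in the other treated libraries, and FANCM fell when that library was left out (log2 change -0.66, edgeR adjusted p = 0.0096).

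UBE2T and its substrates FANCD2 and FANCI all fell. UBE2T had 20.3, 22.0 and 20.9 CPM in APX2009 libraries, against 25.1, 24.3 and 25.8 CPM in untreated libraries. This was the smallest fall among the members that passed (log2 change -0.25 ± 0.07, SE; edgeR adjusted p = 0.0248), and it was lost when any untreated library was left out and with DESeq2 (adjusted p = 0.0533). FANCD2 had 14.0, 12.6 and 12.8 CPM in APX2009 libraries, against 17.5, 16.8 and 17.7 CPM in untreated libraries (log2 change -0.40 ± 0.09, SE; edgeR adjusted p = 0.00647). FANCI (ENSG00000140525, chromosome 15, 89243949 to 89317261) had 29.8, 36.2 and 33.3 CPM in APX2009 libraries, against 47.9, 50.8 and 47.5 CPM in untreated libraries (log2 change -0.56 ± 0.08, SE; edgeR adjusted p = 5.19e-04). USP1, the protease that removes ubiquitin from this pair, was taken with the list of other Fanconi and crosslink repair genes and fell too, by 0.61 ± 0.08 on the log2 scale (SE; edgeR adjusted p = 2.97e-04).

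Of the genes of structure-specific cutting and its scaffold taken as members (MUS81, EME1, SLX4 and FAN1), MUS81 fell and the others did not pass the test. MUS81 codes for the catalytic subunit that cuts branched DNA together with EME1 or EME2 (ENSG00000172732, chromosome 11, 65857126 to 65867653). It had 42.6, 43.2 and 46.3 CPM in APX2009 libraries, against 69.7, 65.9 and 67.0 CPM in untreated libraries, with log2 change -0.62 ± 0.06 and the smallest p of all members (SE; edgeR adjusted p = 5.63e-05). Exons of MUS81 overlap those of neighbouring opposite-strand genes over 14.1% of their length. Among these is CFL1, which averaged 448.3 CPM in APX2009 libraries and 553.3 CPM in untreated libraries and also fell, by 0.30 on the log2 scale (edgeR adjusted p = 0.00792). The part of CFL1 reads in the MUS81 value was not tested.

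The partner EME1 overlapped between groups, at 5.92, 5.56 and 4.12 CPM in APX2009 libraries and 5.81, 6.15 and 5.07 CPM in untreated libraries (log2 change -0.12 ± 0.16, SE; edgeR adjusted p = 0.594). Its exons overlap over 16.4% of their length with the opposite-strand gene LRRC59, which averaged 315.4 CPM in APX2009 libraries and 284.4 CPM in untreated libraries. EME2, from a list of 32 other genes of recombination, rose, with 49.2, 41.6 and 44.0 CPM in APX2009 libraries, against 29.3, 22.9 and 24.9 CPM in untreated libraries (log2 change 0.81 ± 0.10, SE; edgeR adjusted p = 2.19e-04). Its exons overlap those of the opposite-strand gene SPSB3 in part. SLX4, the scaffold that holds several of these nucleases, had 17.0, 21.6 and 23.2 CPM in APX2009 libraries and 17.2, 18.5 and 18.8 CPM in untreated libraries. Its log2 change of 0.18 ± 0.12 did not pass (SE; edgeR adjusted p = 0.259), and it rose when APX2009 replicate 1 was left out (log2 change 0.30, edgeR adjusted p = 0.0125). The nuclease gene FAN1 had log2 change -0.09 ± 0.09 (SE; edgeR adjusted p = 0.452). It shares 24.3% of its exon length with the opposite-strand gene MTMR10, which rose by 0.59 on the log2 scale (edgeR adjusted p = 0.00411).

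Of the checkpoint genes, the kinase gene ATR and the gene of its effector kinase CHEK1 fell, whereas ATM and CHEK2 did not pass the test. ATR, whose kinase responds to single-stranded DNA at stalled forks, had 42.4, 42.5 and 36.7 CPM in APX2009 libraries, against 45.6, 50.9 and 50.9 CPM in untreated libraries (log2 change -0.28 ± 0.08, SE; edgeR adjusted p = 0.0221). Exons of ATR overlap the opposite-strand gene AC109992.1 over 16.4% of their length. CHEK1 had 8.73, 9.78 and 7.999 CPM in APX2009 libraries, against 13.6, 12.2 and 11.2 CPM in untreated libraries (log2 change -0.48 ± 0.12, SE; edgeR adjusted p = 0.0126). The ATR call was lost without APX2009 replicate 3, untreated replicate 2 or untreated replicate 3, and the CHEK1 call without untreated replicate 1. ATM, whose kinase responds to double-strand breaks, had 29.4, 28.0 and 23.9 CPM in APX2009 libraries and 26.2, 31.9 and 28.6 CPM in untreated libraries. Its groups overlapped, and its log2 change was -0.09 ± 0.10 (SE; edgeR adjusted p = 0.509). CHEK2 had a log2 change of -0.22 ± 0.16 and TOPBP1, an activator of ATR, of -0.10 ± 0.07 (SE; edgeR adjusted p = 0.304 and 0.293). The per-kb ratio of ATR to ATM was 2.76, 2.92 and 2.95 in APX2009 libraries, against 3.33, 3.06 and 3.42 in untreated libraries (two-sided exact permutation p = 0.1, and 0.167 adjusted over the 10 ratios). Of the 10 ratios 6 had this p, BARD1 to BRCA1 among them. The two-sided exact permutation p was 0.2 for MUS81 to EME1 and for CHEK1 to CHEK2, 0.4 for FANCI to FANCD2 and 0.9 for NBN to MRE11, and no ratio passed after adjustment.

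POLQ codes for the polymerase of an alternative end joining that uses short homologies and competes with recombination for resected ends. It had 9.51, 10.8 and 7.999 CPM in APX2009 libraries, against 16.5, 16.2 and 15.8 CPM in untreated libraries, with log2 change -0.77 ± 0.12 (SE; edgeR adjusted p = 7.27e-04). The groups were well apart, and the fall was 1.71-fold.

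Per kb of exon, the only scale on which levels of different genes are compared here, the members spanned more than an order of magnitude. UBE2T was highest, at 12.7 ± 0.533 CPM per kb in APX2009 libraries and 15.2 ± 0.430 in untreated libraries (SD, n = 3 each). MUS81 followed in untreated libraries, at 8.04 ± 0.357 in APX2009 libraries and 12.3 ± 0.356 in untreated libraries. RBBP8 and FANCG stood next in untreated libraries, and in APX2009 libraries RAD50 at 8.71 ± 1.10 lay beside MUS81, within its spread. The lowest members were RAD54B, at 0.260 ± 0.103 in APX2009 libraries and 0.242 ± 0.0496 in untreated libraries, and FANCB, at 0.329 ± 0.0532 in APX2009 libraries and 0.297 ± 0.0468 in untreated libraries. These did not differ from each other beyond their spread in either group. BRCA2 was among the lower members, at 0.617 ± 0.0580 in APX2009 libraries and 1.04 ± 0.0609 in untreated libraries. Lengths are of all annotated exons, so genes with many unused exons read low. They include exons shared with other genes, over 59.1% of the length in RAD54B and 79.7% in RAD50. How reads in shared exons were counted is not given in the sources used here.

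**Figure D3:**
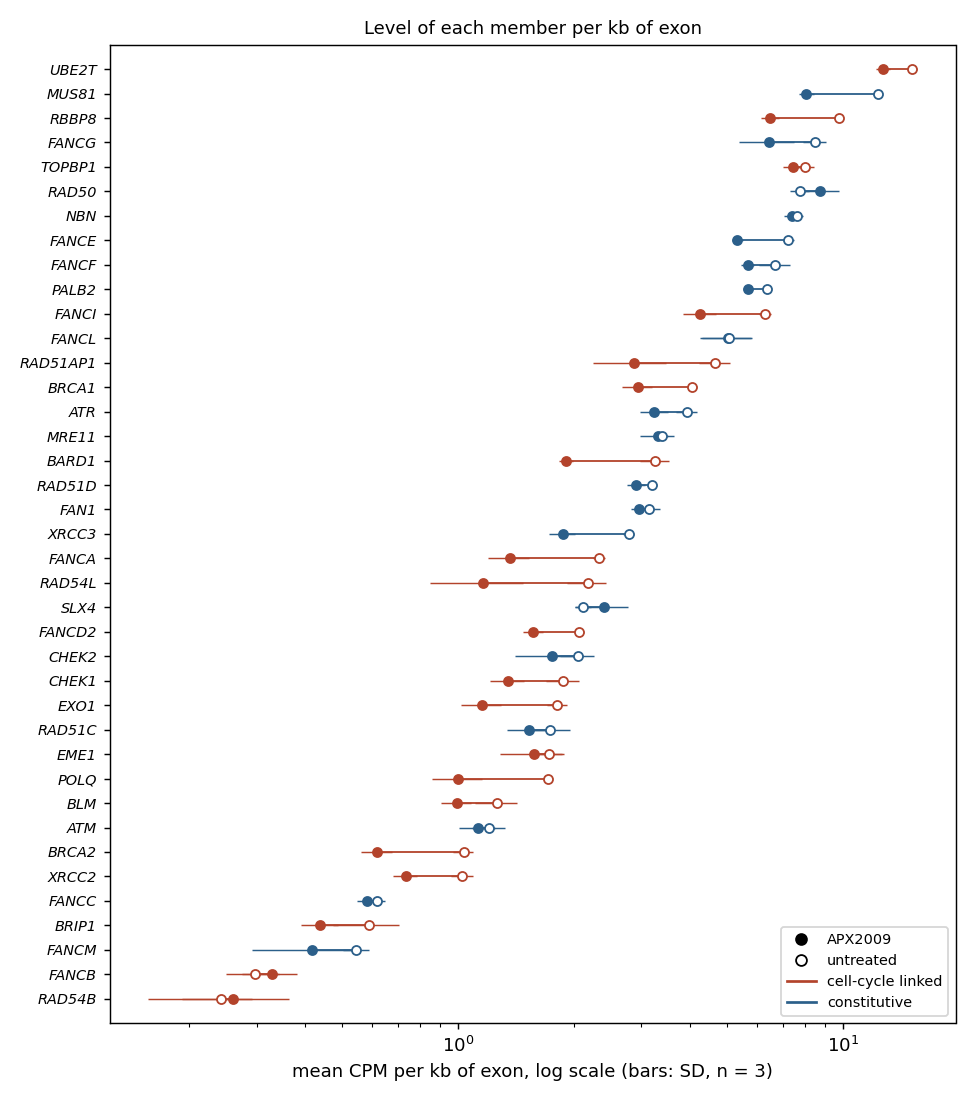
Mean level of each member in CPM per kb of exon (log axis, bars are SD, n = 3), filled for APX2009 and open for untreated libraries, ordered by the untreated level. Levels run from 0.242 for RAD54B to 15.2 for UBE2T in untreated libraries, and the gaps between filled and open points are widest in genes that fell, such as RAD54L, POLQ and BARD1.

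The rest of the pathway gave mixed calls. Of 32 other recombination genes 10 fell (31.2%) and 2 rose, with a median log2 change of -0.19. Over all genes tested 17.4% fell and 17.2% rose. Among them, RMI2 of the BLM complex fell by 0.88 ± 0.11 and the mediator gene SFR1 by 0.71 ± 0.12 on the log2 scale (SE; edgeR adjusted p = 2.53e-04 and 0.00108), while EME2 rose. Of 18 other Fanconi and crosslink repair genes 5 fell (27.8%) and 2 rose (median -0.07). UHRF1, which codes for a chromatin reader also needed for DNA methylation, fell by 1.05 and the nuclease gene DCLRE1B by 0.86, while CENPS rose by 0.72 (edgeR adjusted p = 5.59e-05, 5.41e-04 and 0.00663). CENPS shares 64.8% of its exon length with other annotated genes, a read-through transcript among them.

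Of 18 genes of checkpoint and break signalling 8 fell (44.4%) and 2 rose (median -0.28), against 17.4% and 17.2% of all genes tested. The ATR pathway adaptor gene CLSPN fell by 0.83, the histone gene H2AX by 0.57 and the mitotic brake kinase gene WEE1 by 0.47 on the log2 scale (edgeR adjusted p = 0.00192, 2.83e-04 and 0.00255). RAD9A, a subunit of the clamp that activates ATR, rose instead, to 38.2, 29.7 and 28.0 CPM in APX2009 libraries, against 18.5, 14.6 and 17.3 CPM in untreated libraries (log2 change 0.93 ± 0.13, SE; edgeR adjusted p = 4.12e-04). Its clamp partner RAD1 fell (log2 change -0.39 ± 0.10, SE; edgeR adjusted p = 0.0144). The other partner, HUS1, did not pass the test (log2 change 0.15 ± 0.09, SE; edgeR adjusted p = 0.24).

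Non-homologous end joining, which needs no sister copy, held genes that fell as well. Of its 15 genes 6 fell (40.0%) and 1 rose, against 17.4% and 17.2% of all genes tested, although the median log2 change was 0.01. The Ku subunit genes XRCC5 and XRCC6 fell by 0.38 ± 0.07 and 0.31 ± 0.07, the kinase gene PRKDC by 0.62 ± 0.13, and SHLD2 of the shieldin complex by 0.31 ± 0.08 (SE; edgeR adjusted p = 0.00161, 0.00863, 0.00424 and 0.0113).

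Genes of the cell cycle itself moved with the cell-cycle linked members. Of 20 S phase genes 15 fell, with a median log2 change of -0.58, and of 20 mitosis genes all 20 fell, with a median of -1.04. Over all genes tested 17.4% fell. RRM2, MCM7, TK1 and MCM5 fell by 1.32, 1.34, 1.26 and 0.73, and TPX2, ANLN, PLK1 and TOP2A by 1.36, 1.13, 1.36 and 1.11 on the log2 scale (edgeR adjusted p of 7.37e-05 for MCM5 and lower for the others). As library medians of the log2 difference from the untreated mean, the cell-cycle linked repair genes stood at -0.46, -0.44 and -0.59 in APX2009 replicates 1, 2 and 3, the S phase genes at -0.65, -0.50 and -0.60, and the mitosis genes at -1.002, -0.89 and -1.25. The constitutive members stood at -0.10, -0.05 and -0.27, so replicate 3 was the lowest treated library for both classes of repair genes. Untreated libraries lay between -0.04 and 0.06 in these 4 sets. The part of the cell cycle in the falls of the repair genes was not tested.

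**Figure D4:**
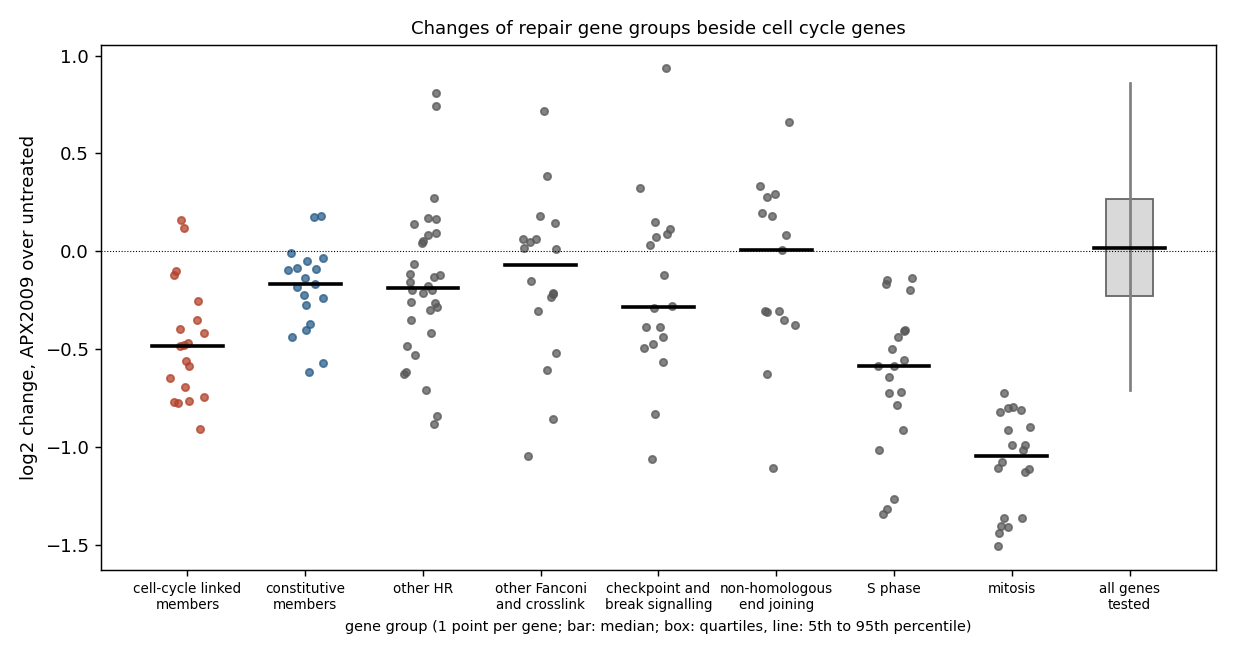
Log2 change (APX2009 over untreated) of each gene, 1 point per gene, in the 2 classes of members and in 6 other lists, with the median as a bar; for all 14773 genes tested a box gives the quartiles. The medians are -0.48 for cell-cycle linked members, -0.17 for constitutive members, -0.58 for S phase genes, -1.04 for mitosis genes and 0.02 for all genes.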

How the data were processed

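For 6 libraries of polyadenylated RNA the authors deposited a table of unnormalized gene counts, to which 92 ERCC spike-in rows are added. The submitters' processing notes name GRCh38 as the build and list Subread 1.5.2 with featureCounts, STAR 2.5.2b and Trimmomatic 0.36. Settings, annotation release and strandedness were not given in the sources used here. Symbols, positions and exon overlaps came from GENCODE 29, which matched 57447 of 58051 gene IDs; unmatched IDs held 0.0348% of the counts. ERCC rows were kept out of library sizes. Genes were filtered with filterByExpr, scaled by TMM and tested in edgeR 4.0.16 (R 4.3.3) by quasi-likelihood on treatment alone, with Benjamini-Hochberg adjustment over all 14773 genes; SE came from the F statistic. The step was tested on simulated counts. No pair of replicates agreed within sampling noise (chi-square per degree of freedom 3.23 to 33.3).

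The members, their classes and the gene lists were written from general knowledge with earlier results of these data known. All members are reported, and the up to 4 genes with the smallest p of each other list; 1 gene that this rule names is not reported here. Of the fibroblast markers COL1A1, and of the leukocyte markers CD68 and CD14, were tested. Ratios of genes were compared by exact permutation (scipy 1.17.1). Alternatives were other scalings (RLE, total counts, upper quartile, ERCC total), filters, DESeq2 1.42.0, limma 3.58.1 voom, a replicate block, leaving out each library, a threshold of 0.01 and the clearest class members. Figures were drawn with matplotlib 3.10.9.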

Additional observations from a re-analysis of the deposited data

How the results depend on the processing

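Of the 19 members that fell, 14 passed in each of the 6 fits that left out a library and in 8 other settings (other scalings apart from ERCC, filters, tools and the block), 11 of them cell-cycle linked and 3 constitutive. Leaving out libraries gave 15 to 20 members lower and 0 to 1 higher, 11 to 14 cell-cycle linked and 3 to 6 constitutive members lower, medians of -0.55 to -0.42 and -0.18 to -0.13, and 3503 to 5709 changed genes (1795 to 2870 lower, 1708 to 2839 higher). The constitutive count was 3 without APX2009 replicate 3 and 3 without untreated replicate 2. DESeq2 called 17 members lower.

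Scaling by the ERCC total, which was 0.315% of counts in APX2009 replicate 1 and 0.480% to 0.752% in the other libraries, called 0 members lower, 0 cell-cycle linked and 0 constitutive (edgeR; 0 at an unadjusted p under 0.05), and 136 genes in all, 7 lower and 129 higher. All 19 members that fell kept a negative log2 change there, and the median over all genes was 0.08. The cause was not tested.

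At an adjusted p under 0.01, 3 constitutive members and 3057 genes passed (1587 lower, 1470 higher), and with the clearest class members 3 constitutive genes fell. Some members that did not pass changed sign. With ERCC scaling the log2 change was 0.0637 for MRE11, 0.0425 for NBN, 0.0886 for FANCL, 0.00784 for ATM and 0.00528 for TOPBP1, and with total counts it was 0.00457 for FANCL. Over the fits that left out a library, RAD54B ranged from -0.197 to 0.376, MRE11 from -0.0894 to 0.0409, FANCL from -0.124 to 0.106, EME1 from -0.230 to 0.0138, and the marker COL1A1, which did not pass either, from -0.0572 to 0.341.

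Same-numbered libraries had deviations that correlated at 0.14, 0.078 and 0.006. APX2009 replicates 1 and 2 correlated best with the untreated library of the same number, and APX2009 replicate 3 with untreated replicate 2 (0.115). The numbers were not taken to pair the samples. With the replicate block 19 members fell, 14 cell-cycle linked and 5 constitutive, and 5501 genes changed.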
